A study of Homo sapiens with 6 samples.

Results

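The genes described here encode 8 enzymes or enzyme subunits of the citric acid cycle, CS, IDH2, IDH3A, OGDH, SUCLG1, SUCLA2, FH and MDH2, together with PC, which feeds the cycle. They were chosen by symbol, 9 of the 29436 gene symbols in the count table, and all 9 were found there and passed the filter on low counts. PC, pyruvate carboxylase, is not itself a step of the cycle. The cells were hemogenic endothelium, the endothelium from which blood cells arise, derived on AGM-S3 stroma from the established human embryonic stem cell line H1. The 3 lipoic acid libraries came from cultures whose blood-inducing medium held 100 µg/ml alpha lipoic acid, and the 3 untreated libraries from the same medium without it. In both groups, cells positive for CD34, KDR and CD144 and negative for CD43 were sorted on day 8, and each library was made from polyA cDNA amplified from 1000 cells. Whether the replicates were separate cultures is not in the labels, so each p-value reflects the spread among these libraries alone, which may be technical.

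The citric acid cycle oxidises acetyl groups to carbon dioxide in the mitochondrial matrix and passes the electrons to the respiratory chain. Citrate synthase joins acetyl-CoA to oxaloacetate, isocitrate and 2-oxoglutarate dehydrogenases release carbon dioxide, succinyl-CoA ligase makes ATP or GTP, and fumarase and malate dehydrogenase regenerate oxaloacetate. The 2-oxoglutarate dehydrogenase complex carries lipoic acid bound to one of its subunits. Proliferating cells also draw citrate, 2-oxoglutarate and oxaloacetate out of the cycle for synthesis, and pyruvate carboxylase and glutamine refill it.

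Total counts were between 30041494 and 41351951 per library. Even numbers made up between 99.13% and 99.34% of nonzero counts in the 3 lipoic acid libraries, and 99.21%, 52.01% and 51.97% in untreated replicates 1 to 3, so results were also computed in the 4 libraries of even counts alone. CDH5, which encodes CD144, was between 538 and 574 CPM (the count scaled to depth by TMM library sizes) in lipoic acid libraries and between 780 and 1010 CPM in untreated ones. KDR was between 4677 and 4944 CPM with lipoic acid and between 3861 and 4309 CPM without it. SPN, the gene of CD43, was at 0 counts throughout. The summed level of 10 endothelial markers was 9059 to 9393 CPM in lipoic acid libraries and 9982 to 10130 CPM in untreated ones, with 2 of them higher and 6 lower. Mitochondrially encoded genes took 4.39% to 5.02% of counts in lipoic acid libraries and 2.45% to 2.82% in untreated ones. Of 13780 genes tested with edgeR's quasi-likelihood test, 47.4% were called at a Benjamini-Hochberg adjusted p under 0.05, 24.2% higher and 23.3% lower with lipoic acid.

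Sequence before a RefSeq transcription start is shown for the 3 genes that rose and for SUCLG1, the largest fall, since partners of one enzyme moved in opposite directions. Of the 9 genes, 8 matched the RefSeq promoter table (GRCh38.p14) and OGDH was not among them. Each line gives the 250 bases upstream of a RefSeq start, 5′ to 3′, in lower case, with capitals marking each match on either strand to CCAAT or to the GC box GGGCGG. These matches do not overlap one another in the 4 windows. PC has 3 such windows, of which the most distal is shown, and the counts do not tell which start was used. The windows of SUCLA2, IDH3A and SUCLG1 lie inside the GENCODE v29 gene models, which begin further upstream, so other starts are annotated for these genes too.
PC, chr11:66958384-66958633, minus strand: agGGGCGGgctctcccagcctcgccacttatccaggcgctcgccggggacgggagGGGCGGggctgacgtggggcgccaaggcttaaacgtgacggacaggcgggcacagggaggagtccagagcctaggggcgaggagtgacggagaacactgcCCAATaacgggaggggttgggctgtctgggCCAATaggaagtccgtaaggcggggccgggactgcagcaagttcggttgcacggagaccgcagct
SUCLA2, chr13:48001274-48001523, minus strand: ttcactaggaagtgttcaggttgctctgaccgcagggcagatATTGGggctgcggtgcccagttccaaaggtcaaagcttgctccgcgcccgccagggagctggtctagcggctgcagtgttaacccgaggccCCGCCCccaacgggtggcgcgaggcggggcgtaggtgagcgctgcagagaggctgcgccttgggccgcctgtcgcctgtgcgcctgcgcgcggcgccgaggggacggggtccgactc
IDH3A, chr15:78149112-78149361, plus strand: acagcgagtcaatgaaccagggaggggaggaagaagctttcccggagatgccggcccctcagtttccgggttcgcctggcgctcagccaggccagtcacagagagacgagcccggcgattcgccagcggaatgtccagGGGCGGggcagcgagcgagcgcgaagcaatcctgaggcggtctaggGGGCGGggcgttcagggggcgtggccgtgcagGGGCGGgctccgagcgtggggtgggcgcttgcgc
SUCLG1, chr2:84459281-84459530, minus strand: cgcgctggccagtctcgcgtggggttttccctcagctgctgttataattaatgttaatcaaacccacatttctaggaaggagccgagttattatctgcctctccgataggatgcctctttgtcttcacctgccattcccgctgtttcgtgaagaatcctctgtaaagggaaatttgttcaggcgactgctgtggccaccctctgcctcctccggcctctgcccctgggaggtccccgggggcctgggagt

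The 3 windows shown for genes that rose each held the GC box, as do 42.6% of 35116 windows of this length. Their G and C content was 67.6% for PC, 69.2% for SUCLA2 and 70.0% for IDH3A. The PC windows not shown were at 50.4%, with the GC box, and at 56.4%, without it. The SUCLG1 window had a G and C content of 55.2% and held neither motif. CCAAT occurred in the PC and SUCLA2 windows, against 32% of all windows. None of the 10 windows of the 8 matched genes held the ATF4 element TGATGNAA (3.14% of all windows) or the antioxidant element core TGACNNNGC (10.9%), and MDH2 alone held the ETS motif CCGGAAG (8.52%). CS, which fell, had the GC box 5 times, CCAAT 2 times and a G and C content of 67.6%. IDH2, which also fell, held neither of these 2 motifs and had a G and C content of 48.4%. Among the genes that fell, CS thus resembled the windows shown for genes that rose, while SUCLG1 and IDH2 did not. A link between these windows and the changes was not tested.

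With lipoic acid, 3 of the 9 transcripts rose, PC, IDH3A and SUCLA2, and 3 fell, SUCLG1, CS and IDH2, while OGDH, FH and MDH2 were not called. The 6 calls among 9 genes stand beside 47.4% of all tested genes. The groups did not overlap for 7 of the 9, where 59.1% of all tested genes had no overlap. The median log2 fold change of the 9 was 0.06, and that of all tested genes was -0.01. The rises, between 1.40-fold and 2.80-fold, were larger than the falls, between 1.13-fold and 1.23-fold. The summed level of the 9 genes averaged 762 ± 35.3 CPM in lipoic acid libraries and 792 ± 36.6 CPM in untreated ones (SD, n = 3 each).

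**Figure D1:**
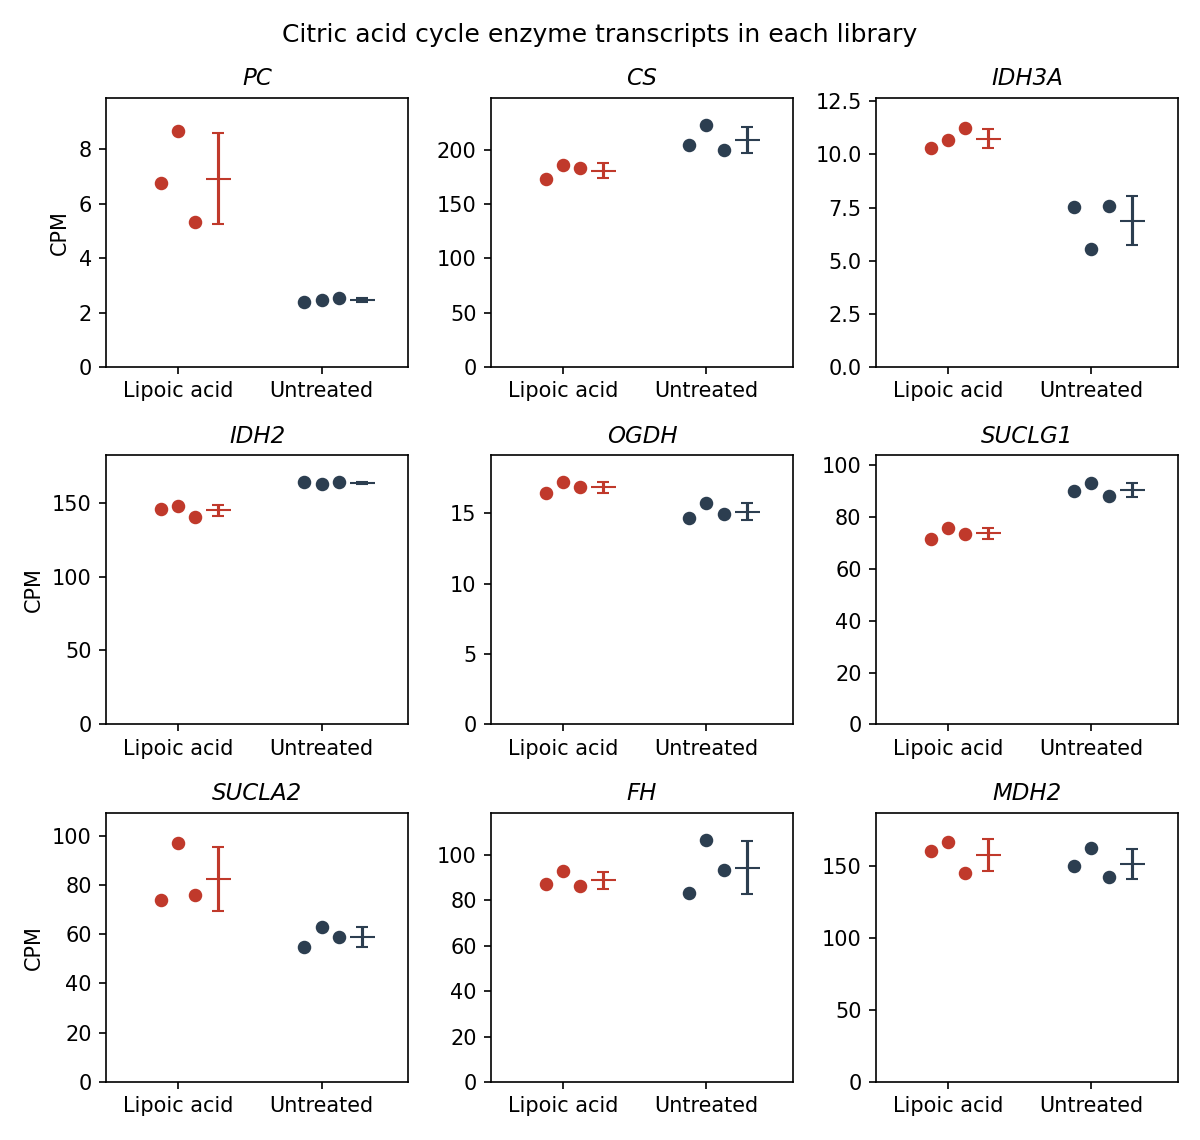
Each panel plots 1 gene on its own CPM axis from 0, with a point for each of the 3 lipoic acid and 3 untreated libraries and a bar for the mean ± SD of a group. PC, IDH3A and SUCLA2 lie higher with lipoic acid, SUCLG1, CS and IDH2 lower, and the points of FH and MDH2 overlap between groups.

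PC encodes pyruvate carboxylase, the biotin enzyme that turns pyruvate into oxaloacetate and so refills the cycle. Its level was 6.78, 8.67 and 5.32 CPM in lipoic acid replicates 1 to 3, against 2.40, 2.46 and 2.53 CPM in the untreated ones, from 272, 274 and 220 counts with lipoic acid and 78, 74 and 76 counts without it. Every lipoic acid library was above every untreated one, and the lipoic acid libraries spread more, with a coefficient of variation of 24.3% against 2.59% in the untreated ones. PC rose 2.80-fold (log2 fold change 1.49, SE 0.23, edgeR adjusted p = 0.000591), and 6.10% of all tested genes had a higher log2 fold change. It lies on chromosome 11 (66848233 to 66958376, GRCh38), and exons of LRFN4 on the other strand cover 10.5% of its exonic length. PDHA1, the catalytic subunit gene of pyruvate dehydrogenase, which sends pyruvate to acetyl-CoA instead, had 87.0, 79.8 and 85.1 CPM in lipoic acid libraries and 85.0, 91.8 and 87.6 CPM in untreated ones, and was not called (log2 fold change -0.07, 95% interval -0.21 to 0.08). Exons of MAP3K15 on the other strand cover 21.3% of PDHA1. The log2 ratio of PC to PDHA1 within a library averaged -3.63 ± 0.40 with lipoic acid and -5.16 ± 0.05 without it (SD, n = 3 each, exact two-sided permutation p = 0.1, the smallest that 3 against 3 allows, and 0.14 adjusted over the 7 ratios computed).

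PC is abundant in liver, and markers of endoderm and liver were measured in the same libraries. Of 10 such markers 8 were tested and 7 rose. Beside each marker count given here stand 24.2% of all tested genes higher and 23.3% lower. Summed, the endoderm and liver markers were at 148, 220 and 150 CPM in lipoic acid replicates 1 to 3. They were at 30.8, 40.3 and 27.5 CPM in the untreated ones. Replicate 2 was the highest of the lipoic acid libraries in this sum and in every one of the 9 genes except IDH3A, those that fell included. AFP, the fetal liver protein, had 50.5, 77.5 and 52.4 CPM in lipoic acid libraries and 4.74, 7.52 and 5.29 CPM in untreated ones. Of the other liver markers, ALB had 8, 0 and 24 counts with lipoic acid and 2, 0 and 0 counts without it, and SERPINA1 had 0 counts in every lipoic acid library. PCK1, the cytosolic phosphoenolpyruvate carboxykinase of liver and kidney, was at 0 counts in all 6 libraries, so a level of at most 0.053 CPM over the lipoic acid and 0.0393 CPM over the untreated libraries is allowed. Epithelial markers also rose, 5 of 6 tested, with summed levels of 394 to 466 CPM in lipoic acid libraries and 226 to 249 CPM in untreated ones. Of 9 mesenchymal markers 1 rose and 4 fell, at 1242 to 1760 CPM with lipoic acid and 1539 to 2173 CPM without it. Of 6 blood markers 2 were tested and both rose, PF4 8.99-fold and ITGA2B 3.69-fold. In untreated replicates 1 to 3 PF4 had 8, 8 and 22 counts and ITGA2B 46, 2 and 15. Both passed the low-count filter through the lipoic acid libraries, which favours genes high there, so the shares of all tested genes are no measure for them. The summed level of the 6 blood markers was 5.78 to 6.77 CPM in lipoic acid libraries and 0.33 to 1.66 CPM in untreated ones. PTPRC, SPN and SPI1 were at 0 counts. Of 4 cardiac markers tested 2 rose and 1 fell, at 23.0 to 23.4 CPM with lipoic acid and 16.4 to 22.8 CPM without it. Among the endoderm and epithelial markers that rose, FOXA2, CDH1 and CLDN4 also passed the filter through the lipoic acid libraries. TNNT2, the cardiac fall, passed it through the untreated ones. The part of these markers in the levels of the 9 genes was not tested, and in sorted bulk samples a change in the share of a cell type and a change in RNA per cell cannot be told apart.

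CS encodes citrate synthase, the first step of the cycle, from chromosome 12 (56271699 to 56300392, minus strand, GRCh38). It had 173, 186 and 184 CPM in lipoic acid replicates 1 to 3, against 205, 223 and 200 CPM in untreated ones, and the groups did not overlap. The fall was 1.16-fold (log2 fold change -0.21, SE 0.06, edgeR adjusted p = 0.0188). CS lost its call without lipoic acid replicate 1 (adjusted p = 0.0976) or 3 (0.0636), and was not called on the even-count libraries (0.0598).

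Isocitrate is oxidised by a mitochondrial NAD-dependent enzyme made of IDH3A, IDH3B and IDH3G subunits, by the mitochondrial NADP-dependent IDH2 and by the cytosolic IDH1. IDH3A, the catalytic subunit on chromosome 15 (78131498 to 78171949, plus strand), had 10.3, 10.7 and 11.2 CPM in lipoic acid libraries and 7.51, 5.55 and 7.58 CPM in untreated ones, without overlap. It rose 1.56-fold (log2 fold change 0.64, SE 0.16, edgeR adjusted p = 0.00911). Exons of ACSBG1 and CIB2 on the other strand cover 38.9% of its exonic length, and use of strand in counting is not given in the sources used here, so reads of these genes cannot be told apart. Its partner IDH3B moved the other way, at 99.9, 102 and 95.2 CPM in lipoic acid libraries against 123, 127 and 115 CPM in untreated ones (log2 fold change -0.30, SE 0.06, adjusted p = 0.00381). With a trend against G and C content and transcript length removed, IDH3B stayed lower at a log2 fold change of -0.16 (adjusted p = 0.0330). IDH3G, named after its values were seen, had 59.3, 55.2 and 51.7 CPM in lipoic acid libraries and 70.4, 66.6 and 60.3 CPM in untreated ones and was also lower (log2 fold change -0.25, adjusted p = 0.0289), but lost its call once that trend was removed (-0.0015, adjusted p = 0.986) and without lipoic acid replicate 2 (0.0868), lipoic acid replicate 3 (0.144) or untreated replicate 1 (0.105). The log2 ratio of IDH3A to IDH3B averaged -3.20 ± 0.10 with lipoic acid and -4.16 ± 0.32 without it, with no overlap (SD, n = 3 each, exact permutation p = 0.1, adjusted 0.14).

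IDH2, also on chromosome 15 (90083045 to 90102504, minus strand), had 146, 148 and 141 CPM in lipoic acid libraries, against 164, 163 and 164 CPM in untreated ones. The groups did not overlap, but the difference was small, a 1.13-fold fall (log2 fold change -0.18, SE 0.05, edgeR adjusted p = 0.0219). IDH2 lost its call without lipoic acid replicate 1 (adjusted p = 0.0721) or 3 (0.121), without untreated replicate 1 (0.0507) or 3 (0.0613), in the 4 libraries of even counts (0.0626) and with the G and C content and length trend removed (0.0895). Its cytosolic counterpart IDH1 had 321, 344 and 339 CPM in lipoic acid libraries and 210, 223 and 222 CPM in untreated ones. IDH1 rose 1.53-fold (log2 fold change 0.61, SE 0.06, adjusted p = 2.54e-05). The log2 ratio of IDH2 to IDH1 was between -1.27 and -1.14 with lipoic acid and between -0.46 and -0.36 without it (exact two-sided permutation p = 0.1, adjusted 0.14, n = 3 each). The mitochondrial transcript therefore stood lower against the cytosolic one in all 3 lipoic acid libraries than in any untreated library.

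OGDH encodes the first component of the 2-oxoglutarate dehydrogenase complex, on chromosome 7 (44606572 to 44709066, plus strand). It had 16.4, 17.2 and 16.9 CPM in lipoic acid libraries and 14.6, 15.8 and 15 CPM in untreated ones. Although these values did not overlap, OGDH was not called (log2 fold change 0.16, 95% interval -0.07 to 0.38, edgeR adjusted p = 0.229). DLST, the component of the complex that carries lipoic acid, was counted at 20, 4 and 16 counts with lipoic acid and 16, 32 and 14 counts without it. DLD, the third component, had 3052 to 4450 counts with lipoic acid and 2964 to 3059 counts without it. The annotation holds a pseudogene named DLSTP1, and how reads with several alignments were counted is not given in the sources used here, so the DLST level and the ratio of OGDH to DLST are uncertain. That ratio averaged 5.86 ± 1.08 on the log2 scale with lipoic acid and 4.60 ± 0.62 without it (SD, n = 3 each, exact permutation p = 0.1, adjusted 0.14). The difference of 1.26 fell to 0.65 without lipoic acid replicate 2, the library with 4 DLST counts. DLD was not called, with a log2 fold change of 0.04 and a 95% interval of -0.11 to 0.20. OGDHL, a relative of OGDH, was called lower (edgeR adjusted p = 0.00876), but passed the low-count filter through the untreated libraries alone. With even counts halved it did not pass the filter and was not tested. It then had 3 counts over the lipoic acid and 29 over the untreated libraries, a ratio of 0.14. The 95% exact binomial interval of 0.0272 to 0.451 covers counting error alone. OGDHL was not called in the even-count libraries (adjusted p = 0.0563).

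**Figure D2:**
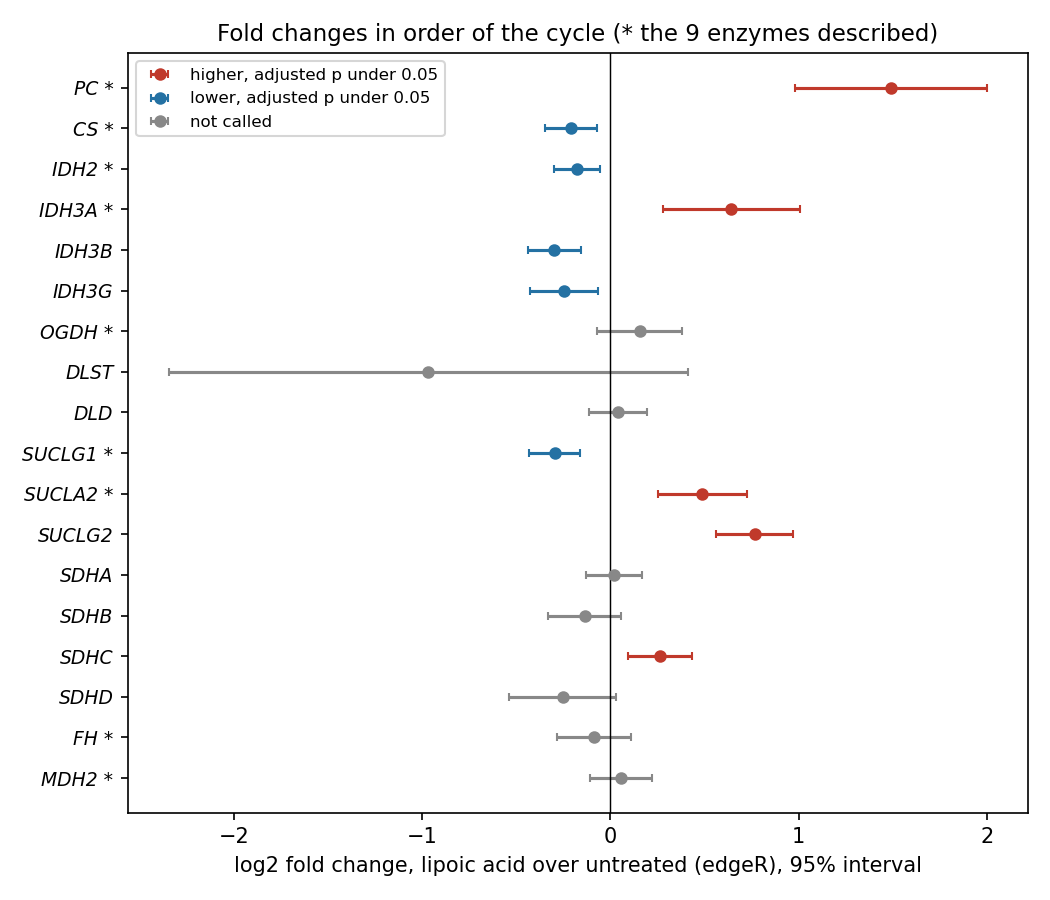
Log2 fold changes (lipoic acid over untreated, edgeR) are plotted down the page in the order of the cycle, with 95% intervals as bars, an asterisk on the described genes and colour for the call. IDH3A lies to the right of 0 with IDH3B and IDH3G to the left, and SUCLA2 and SUCLG2 lie to the right with SUCLG1 to the left.

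Succinyl-CoA ligase makes ATP or GTP at the substrate level. Its alpha subunit, SUCLG1, is shared, and pairs with the beta subunit SUCLA2 in the ATP-forming enzyme or with SUCLG2 in the GTP-forming one. SUCLG1, on chromosome 2 (84423523 to 84460045, minus strand), had 71.7, 75.9 and 73.5 CPM in lipoic acid libraries, against 90.1, 93.3 and 88.1 CPM in untreated ones. The groups were apart, with a coefficient of variation of 2.86% in each, and SUCLG1 fell 1.23-fold (log2 fold change -0.30, SE 0.06, edgeR adjusted p = 0.00306). SUCLA2, on chromosome 13 (47745736 to 48037968, minus strand), had 73.9, 97.2 and 76.1 CPM in lipoic acid libraries and 54.7, 62.8 and 58.7 CPM in untreated ones, also without overlap. It rose 1.40-fold (log2 fold change 0.49, SE 0.11, adjusted p = 0.00399). Lipoic acid replicate 2 stood above the other two libraries of its group, and without it SUCLA2 was still called at a lower log2 fold change of 0.36. The annotation holds 3 pseudogenes named after SUCLA2, not analysed here, so part of its count may be shared with them.

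The other beta subunit moved as SUCLA2 did. SUCLG2 had 38.3, 36.7 and 38.0 CPM in lipoic acid libraries and 23.0, 23.9 and 19.5 CPM in untreated ones, a 1.70-fold rise (log2 fold change 0.77, SE 0.09, edgeR adjusted p = 0.000138). It has 2 annotated pseudogenes, which may likewise share part of its count. The log2 ratio of SUCLA2 to SUCLG2 averaged 1.12 ± 0.25 with lipoic acid and 1.41 ± 0.17 without it, overlapped between groups and did not differ beyond the spread (SD, n = 3 each, exact permutation p = 0.3, adjusted 0.35). The ratio of SUCLG1 to SUCLA2 did separate the groups, at -0.04, -0.36 and -0.05 on the log2 scale in lipoic acid libraries and 0.72, 0.57 and 0.59 in untreated ones. Counted reads of the alpha subunit were thus below those of SUCLA2 in every lipoic acid library and above them in every untreated library (exact two-sided permutation p = 0.1, adjusted 0.14). As these ratios are of reads and not per length, their sign does not give the balance of molecules. A gene length that is equal in both groups cancels from the difference between them, but a length or G and C trend that differs between libraries does not. With that trend removed the log2 fold change of SUCLA2 was 0.37 and that of SUCLG1 -0.29.

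Succinate dehydrogenase, which follows, is also complex II of the respiratory chain. Of its 4 subunits, SDHC rose 1.2-fold (adjusted p = 0.0180), at 41, 41.2 and 39.7 CPM in lipoic acid libraries and 31.4, 36.2 and 34.0 CPM in untreated ones, but was not called with the G and C content and length trend removed (0.514) or without lipoic acid replicate 1 (0.0537). SDHA, SDHB and SDHD were not called, with log2 fold changes of 0.02, -0.14 and -0.25. SDHD rested on single untreated libraries: its log2 fold change was -0.37 without untreated replicate 1, where it was called lower (adjusted p = 0.0216), and -0.07 without untreated replicate 2. Pseudogenes are annotated for SDHA, SDHC and SDHD, 3, 4 and 3 of them, so part of these counts may be shared with them. Of 4 assembly factors SDHAF1 alone was called lower (2-fold, edgeR adjusted p = 0.0318), where 23.3% of all tested genes fell. It had 1.40, 0.95 and 1.31 CPM in lipoic acid libraries and 3.02, 1.80 and 2.53 CPM in untreated ones. The median log2 fold change was -0.71 over the 4 and -0.01 over all tested genes. SDHAF4, not called, had only 8 to 26 counts per library. SDHAF1 lost its call without any one library other than untreated replicate 2 (adjusted p 0.0579 to 0.115), and with the G and C content and length trend removed (0.110).

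FH and MDH2 close the cycle. FH, fumarase, hydrates fumarate to malate and is present in mitochondria and cytosol from one gene, on chromosome 1 (241497603 to 241519761, minus strand). It had 87.3, 93.2 and 86.3 CPM in lipoic acid libraries and 83.2, 107 and 93.4 CPM in untreated ones, and the groups overlapped (log2 fold change -0.09, 95% interval -0.28 to 0.11, edgeR adjusted p = 0.444). A pseudogene of FH, FHP1, is annotated. MDH2, mitochondrial malate dehydrogenase on chromosome 7 (76048051 to 76067508, plus strand), had 161, 166 and 145 CPM in lipoic acid libraries and 150, 162 and 142 CPM in untreated ones, again overlapping (log2 fold change 0.06, 95% interval -0.11 to 0.22, adjusted p = 0.560). The cytosolic enzyme gene MDH1 had 135, 138 and 141 CPM with lipoic acid and 127, 150 and 135 CPM without it. The log2 ratio of MDH2 to MDH1 averaged 0.19 ± 0.12 with lipoic acid and 0.14 ± 0.08 without it (SD, n = 3 each), a difference of 0.04 within the spread (exact permutation p = 0.7, adjusted 0.7).

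**Figure D3:**
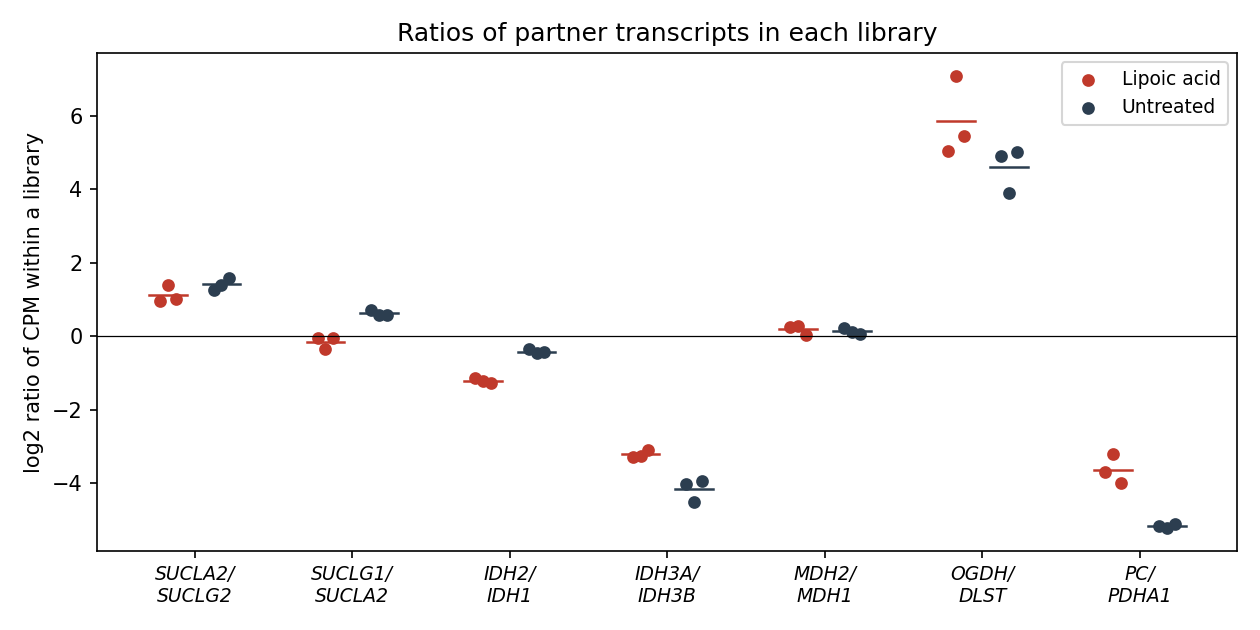
The log2 ratio of the CPM of 2 genes within a library is plotted for 7 gene pairs, with a point per library, lipoic acid left of untreated in each pair, and a line at the group mean. The ratios SUCLG1/SUCLA2, IDH2/IDH1, IDH3A/IDH3B, OGDH/DLST and PC/PDHA1 do not overlap between groups, and SUCLA2/SUCLG2 and MDH2/MDH1 do.

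Levels of different genes were compared per kilobase of annotated exon. In lipoic acid libraries the order was IDH2 (51.4 ± 1.32 CPM per kb), MDH2 (43.2 ± 3.04), FH (41.5 ± 1.75), CS (28.3 ± 1.05), SUCLG1 (17.2 ± 0.49), SUCLA2 (9.23 ± 1.44), OGDH (3.23 ± 0.07), IDH3A (1.57 ± 0.07) and PC (1.17 ± 0.28; SD, n = 3 each). In untreated libraries it was IDH2 (58.1 ± 0.22 CPM per kb), FH (44.1 ± 5.48), MDH2 (41.6 ± 2.80), CS (32.7 ± 1.89), SUCLG1 (21.1 ± 0.60), SUCLA2 (6.58 ± 0.45), OGDH (2.90 ± 0.11), IDH3A (1.01 ± 0.17) and PC (0.415 ± 0.01). In both groups FH and MDH2 overlapped in level and every other pair of neighbours in the order was apart. With coding length in place of exon length, and by the mean of all 6 libraries, MDH2 came first, CS the second, IDH2 the third, SUCLG1 the fourth and FH the fifth, and IDH3A moved above OGDH, while SUCLA2 and PC kept their places. On that length MDH2 averaged 155 CPM per kb and CS 129 CPM per kb in lipoic acid libraries, while in untreated ones MDH2 averaged 149 CPM per kb and overlapped with CS, at 150 CPM per kb. On either length OGDH, IDH3A and PC were the 3 lowest of the 9. The place of IDH3A is uncertain, since exons on the other strand cover 38.9% of it and use of strand in counting is not given.

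**Figure D4:**
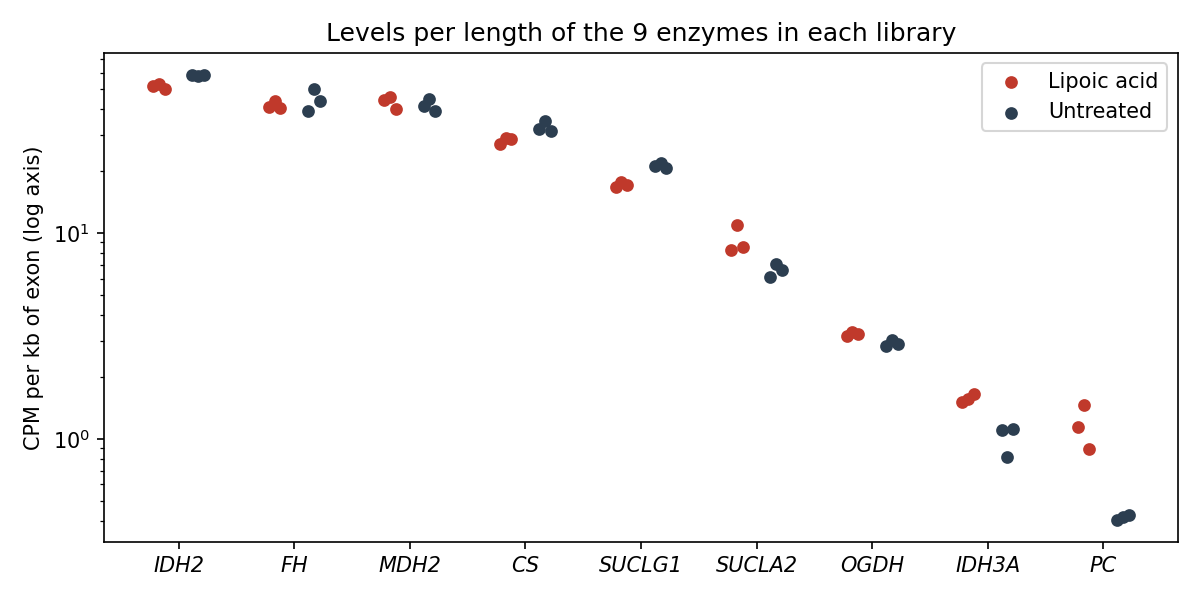
CPM per kilobase of exon on a log axis is plotted for the 9 genes in falling order of their mean, with a point per library and lipoic acid left of untreated. IDH2, FH and MDH2 lie highest and PC lowest, at 0.90 to 1.46 CPM per kb with lipoic acid and 0.40 to 0.43 CPM per kb without it.

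The patterns most like those of the largest rise and the largest fall were sought among 8457 and 8456 tested genes averaging 10 CPM or more. The measure was the root mean square difference of centred log2 CPM over the 6 libraries, after adding 0.5 CPM. PC itself averaged below 10 CPM, so the addition reduces its differences between libraries. Nearest to PC were AJUBA, AIFM2 and ALKBH8, at 0.12, 0.13 and 0.14. Nearest to SUCLG1 were DHDDS, MTX2 and C1orf198, at 0.02 each.

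Genes around the cycle were counted from lists chosen with earlier results of these data known. Of 11 other cycle enzyme genes 2 rose and 3 fell, SUCLG2, SDHC, IDH3B, IDH3G and OGDHL as given, with a median log2 fold change of -0.14. The 5 calls among 11 are near the 47.4% called among all tested genes. They include OGDHL, which passed the low-count filter through the untreated libraries alone, where it is higher. Pyruvate entry had 2 rises and 0 falls among 6, and 24.2% of all tested genes rose. DLAT, the lipoylated core of pyruvate dehydrogenase, had 86.9, 89.4 and 94.7 CPM in lipoic acid libraries and 72.2, 64.4 and 70.8 CPM in untreated ones (1.31-fold, edgeR adjusted p = 0.00151). MPC1, a subunit of the mitochondrial pyruvate carrier, was 1.17-fold higher (adjusted p = 0.0310) but lost its call without lipoic acid replicate 2 (0.0615) or 3 (0.117) or untreated replicate 3 (0.0673), and in the 4 libraries of even counts (0.110).

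Enzymes that draw on cycle intermediates outside it, or exchange them with the cytosol, had 4 rises and 1 fall among 8 tested, beside 24.2% of all tested genes higher and 23.3% lower, with a median log2 fold change of 0.22. PCK2, the mitochondrial phosphoenolpyruvate carboxykinase that takes oxaloacetate from the cycle, had 108, 103 and 99.2 CPM in lipoic acid libraries and 40.4, 31.7 and 34.7 CPM in untreated ones. PCK2 rose 2.91-fold (log2 fold change 1.54, SE 0.09, edgeR adjusted p = 1.75e-06), beside the 2.80-fold rise of PC, which makes oxaloacetate. ME1, cytosolic malic enzyme, rose 1.6-fold and ACLY, which splits exported citrate, fell 1.19-fold (adjusted p = 9.18e-05 and 0.00399). ACO1, cytosolic aconitase, was the fourth rise, at an adjusted p of 0.0499 that 7 of 19 other settings moved past the threshold (0.0505 to 0.333).

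Genes of glutamine and amino acid entry had 5 rises and 1 fall among 10 tested, beside the same 24.2% and 23.3% of all tested genes. GPT2, which makes 2-oxoglutarate from glutamate and pyruvate in mitochondria, rose 1.85-fold, at 46.1, 50.6 and 46.3 CPM in lipoic acid libraries against 28, 23.6 and 25.5 CPM in untreated ones (edgeR adjusted p = 3.56e-05). GOT1, the cytosolic aspartate aminotransferase, rose 1.76-fold, while its mitochondrial counterpart GOT2 was not called (log2 fold change 0.04). MUT, methylmalonyl-CoA mutase, which delivers succinyl-CoA from propionate, rose 1.42-fold (adjusted p = 0.000831). PCCB, another of the 5 rises, was 1.19-fold higher (edgeR adjusted p = 0.0259). It lost its call without lipoic acid replicate 1 (0.0883) or 2 (0.0617) or untreated replicate 3 (0.0904). With the G and C content and length trend removed it was not called either (0.155). Exons of STAG1 on the other strand cover 22.1% of PCCB. GLUD1, glutamate dehydrogenase, fell 1.52-fold, at 17.8, 17.3 and 18.1 CPM in lipoic acid libraries and 26.6, 28.7 and 25.7 CPM in untreated ones (adjusted p = 0.000446), though it has 5 annotated pseudogenes and the close copy GLUD2, so its count is uncertain.

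Mitochondrial carriers of cycle intermediates had 0 rises and 4 falls among 8 (median log2 fold change -0.30), where 23.3% of all tested genes fell. SLC25A11, the carrier of 2-oxoglutarate and malate, fell to 32.4, 36.8 and 36.3 CPM in lipoic acid libraries, against 53.8, 58.3 and 52.2 CPM in untreated ones (1.56-fold, edgeR adjusted p = 0.000168). SLC25A13, which exchanges aspartate and glutamate, fell 1.35-fold (adjusted p = 0.000792). SLC25A1, the citrate carrier, which has 5 annotated pseudogenes, fell 1.30-fold, but with the G and C content and length trend removed its log2 fold change was -0.01 (adjusted p = 0.927). SLC25A18, a glutamate carrier, was 1.84-fold lower and lost its call without lipoic acid replicate 1 (0.0507) or 3 (0.0554). Among 4 genes of 2-hydroxyglutarate and oxaloacetate handling 1 rose and 1 fell, beside 24.2% of all tested genes higher and 23.3% lower. ADHFE1 rose 2.60-fold, with 42.7% of its exonic length shared with 2 other annotated genes on its strand. FAHD1, an oxaloacetate decarboxylase, fell 1.31-fold (edgeR adjusted p = 0.00203 and 0.00672).

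**Figure D5:**
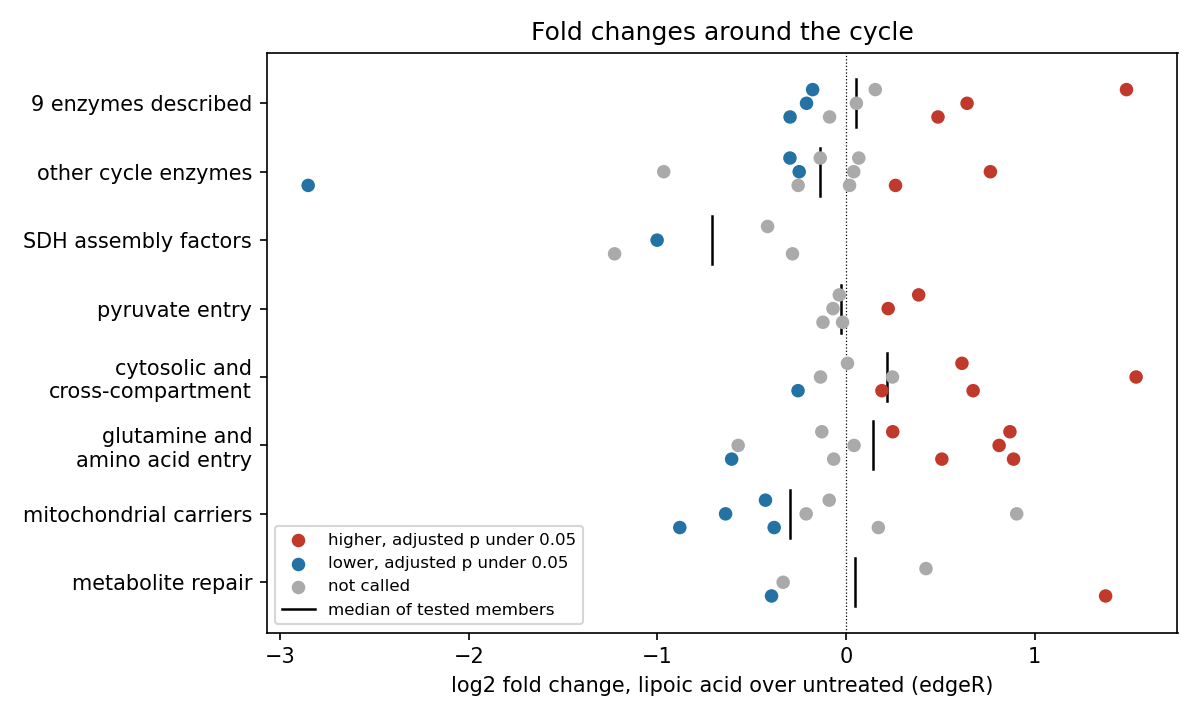
Each point is the log2 fold change (lipoic acid over untreated, edgeR) of 1 tested gene in 8 lists around the cycle, coloured by its call, with a line at the median of each list. The 9 described genes run from -0.30 to 1.49, and the 4 called carriers all lie left of 0.

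Of the 6 calls among the 9 genes, 4 were made in all 19 other settings, including the 4 libraries of even counts, which hold both groups. In those 4 libraries the log2 fold changes were 1.52 for PC, 0.52 for IDH3A, 0.59 for SUCLA2 and -0.29 for SUCLG1 (edgeR adjusted p 0.00330, 0.0393, 0.00632 and 0.0160), with untreated replicate 1 as the only untreated library, assumed to vary like the others.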

How the data were processed

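The authors deposited raw counts per gene symbol for 3 lipoic acid and 3 untreated libraries. HISAT2, featureCounts, DESeq2 and hg38 are named, per the submitters' processing notes, and their versions, options, strand setting and annotation are not given in the sources used here. All deposited counts were whole numbers.

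Counts were analysed in R 4.3.3 with edgeR 4.0.16. A run on simulated data, with a common dispersion and without doubled counts, checked the code only. Genes were kept by filterByExpr (13780), libraries scaled by TMM, and group was the only term. Standard errors and 95% intervals were derived from the quasi-likelihood F statistic. Ratios within a library were compared by exact two-sided permutation. Counting limits and floors of 3 counts over a group, with even counts halved, cover counting error only, since amplified cDNA without molecular barcodes was counted. Gene models were those of GENCODE v29 (GRCh38), which held 29248 of the symbols (99.36%). Exon overlaps with other genes are given where they reach 20%, and for PC.

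The 9 genes, lists and settings were chosen with earlier results of these data known. One gene of the list of other cycle enzymes is not reported here. The text names all 9 genes, both genes of each ratio, up to 4 called genes per list with the lowest p, and the 3 nearest patterns of 2 genes. IDH3G, ACO1, GOT2, PCCB and the uncalled cycle genes were added after their values were seen. Other settings were RLE, upper-quartile and total-count scaling (the last added after the data were seen), other filters, DESeq2 1.42.0, limma 3.58.1 voom, robust moderation, a replicate block, each library left out, mitochondrially encoded genes removed, even counts halved or used alone, and a G and C content and length trend removed.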

Additional observations from a re-analysis of the deposited data

How the results depend on the processing

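IDH3A, SUCLG1, SUCLA2 and PC kept direction and call in all 19 other settings, with log2 fold changes of 0.51 to 0.72, -0.31 to -0.27, 0.36 to 0.59 and 1.30 to 1.66. OGDH and MDH2 stayed uncalled in all 19 (0.14 to 0.20 and 0.02 to 0.12). Leaving out 1 library gave -0.24 to -0.16 for CS, -0.18 to -0.15 for IDH2 and -0.1602 to 0.0095 for FH. In the 4 libraries of even counts CS was -0.18, IDH2 -0.18 and FH 0.0957, none called, so the count of falls among the 9 was 1 in place of 3. It was 1 to 3 with 1 library left out, 1 without lipoic acid replicate 1 or 3. With the G and C content and length trend removed IDH2 was -0.12. Sign changed, among genes not called in the analysis as reported, for SDHA (-0.0797), SDHD (0.0389) and the log2 ratio of MDH2 to MDH1 (-0.0496) in the libraries of even counts, for DLD (-0.0881) and SDHA (-0.0081) with that trend removed, and on leaving out 1 library for DLD (-0.0015 to 0.0783), SDHA (-0.0336 to 0.082) and MDH1 (-0.0343 to 0.074). On coding length the places in the order of levels were MDH2 1, CS 2, IDH2 3, SUCLG1 4, FH 5, IDH3A 7 and OGDH 8.

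A replicate block left the calls at 3 rises and 3 falls among the 9, and at 14 rises and 12 falls against 14 and 11 among the other pathway genes. Correlations of same-numbered libraries' deviations were 0.05, 0.05 and 0.07, so the numbers were not taken to pair the libraries, though each library correlated best with its own number. In both groups replicate 2 had the lowest mesenchymal sum (1242 CPM with lipoic acid, 1539 CPM without it). It also had the highest endoderm and liver sum in both (220 and 40.3 CPM). Whether same-numbered libraries share a batch was not tested, and the analysis as reported and the ratio tests used no pairing. Replicates differed by more than counting noise. Genes near 1 CPM or below, such as DLST and OGDHL, rest on few counts. The cause of these changes was not tested.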
